A study of Mus musculus with 6 samples.

Results

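The 10 genes described here encode proteins that start, feed or restrain the mineralization of cartilage and bone, or that make up the matrix being mineralized. They are Ibsp, Spp1, Sp7, Alpl, Dmp1, Phospho1, Smpd3, Enpp1, Mgp and Phex, taken by gene symbol from a table of 35976 genes. All 10 were in the table and all 10 passed the filter on low counts, which left 13761 genes to test. The RNA came from mouse chondrocytes, the cells that make cartilage matrix, isolated from the hind limb articular cartilage of embryos at day 18.5 (C57BL/6 x 129S4/SvJae). The cells were expanded on plastic for 16 population doublings with ascorbate in the medium and doxycycline at 2 µg/ml, which induced a histone H3.3 transgene in every library. In the 3 H3K9M libraries (replicates 1, 3 and 5) the transgene carried methionine for lysine 9, and the labels describe H3K9 methylation as suppressed. In the 3 H3WT libraries (replicates 1, 2 and 4) the transgene was wild-type H3.3, so the control cells also carried an induced transgene. What drives the transgene, and whether the libraries of a group came from separate animals or cultures, is not given in the sources used here. The p-values therefore measure only the spread between these samples, which may be technical. The comparison asked how the transcripts of expanded chondrocytes differed when methylation of H3 lysine 9 was suppressed.

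Mineral forms in cartilage and bone where phosphate is released close to collagen and where inorganic pyrophosphate, an inhibitor of crystal growth, is removed. Alpl encodes the phosphatase that breaks pyrophosphate down, and Enpp1 encodes the enzyme that makes it from nucleotides. Smpd3 encodes an enzyme that frees phosphocholine from sphingomyelin, and Phospho1 one that frees phosphate from phosphocholine inside matrix vesicles, the small membrane sacs in which mineral starts. Ibsp, Spp1 and Dmp1 encode acidic secreted phosphoproteins of the SIBLING family that bind mineral, Phex encodes a membrane peptidase that cuts peptides of that family, and Mgp encodes a vitamin K-dependent inhibitor of mineralization. Sp7 encodes osterix, the transcription factor of osteoblast commitment. In cartilage some of these genes, such as Ibsp, are known mainly from the hypertrophic zone, next to bone.

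None of the 10 genes had an adjusted p under 0.05 by the quasi-likelihood test of edgeR (Benjamini-Hochberg), and the background was 0% of the 13761 genes tested. At an unadjusted p under 0.05 there were 3 of the 10, against 12.2% of all genes: Ibsp and Sp7 with lower means in H3K9M (background in that direction 5.77%) and Enpp1 with a higher mean (6.42%). Only Ibsp and Enpp1 had groups that did not overlap, which was the case for 19.4% of all genes (8.68% with H3K9M lower and 10.7% with H3K9M higher). The log2 fold change was negative for 6 genes and positive for 4, with a median of -0.38. Over all genes tested the median was -0.003, with 6934 negative and 6827 positive. The DESeq2 Wald test, used as an alternative, called 2 of the 10, again Ibsp and Enpp1, where it called 2.83% of all genes.

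Upstream sequences are shown for these 2 genes, the pair whose groups did not overlap, which lay on opposite sides. Promoter windows were in the RefSeq table (GRCm38.p6) for 7 of the 10 genes. Each run below is the 250 bases before the annotated start, 5′ to 3′ on the gene's strand. Capitals mark 1 form, TGTGGT on either strand, of the core motif of Runx factors, the regulators of bone and hypertrophic cartilage.
Ibsp, chr5:104299037-104299286, plus strand: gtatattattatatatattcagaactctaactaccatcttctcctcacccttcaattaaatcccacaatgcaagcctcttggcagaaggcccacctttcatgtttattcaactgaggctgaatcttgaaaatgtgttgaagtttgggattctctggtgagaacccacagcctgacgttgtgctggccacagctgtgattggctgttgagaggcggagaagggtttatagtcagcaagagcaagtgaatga
Enpp1, chr10:24712160-24712409, minus strand: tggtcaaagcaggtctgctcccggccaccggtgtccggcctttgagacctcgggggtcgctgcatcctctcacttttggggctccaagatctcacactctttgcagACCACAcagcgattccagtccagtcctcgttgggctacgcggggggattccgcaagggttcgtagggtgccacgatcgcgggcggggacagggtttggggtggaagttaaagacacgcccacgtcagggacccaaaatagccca
The motif was searched as TGTGGT and, for the other strand, ACCACA, in windows of 300 bases (250 before and 50 after each start). It occurred once in the Enpp1 window, beginning 144 bases before the start, and these letters were not in the Ibsp window. It also occurred once in 1 of the 2 Spp1 windows, 128 bases before the start, and once in 1 of the 2 Dmp1 windows, 164 bases before the start. The windows of Alpl (2 starts), Phospho1 and Phex held no match to these letters. Of all 32851 windows, 16.8% held the motif in this form, and other forms of it were not searched.

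Total counts per library ran from 15113675 to 19606082. The 10 genes together took between 0.0739% (H3K9M replicate 5) and 0.307% (H3K9M replicate 3) of a library's counts, and Spp1 alone made up 63.0% to 83.9% of that. Principal component 1, with 35.5% of the variance, did not separate the groups: H3K9M replicate 3 lay beside H3WT replicate 2, opposite H3WT replicates 1 and 4. Component 2 (28.8%) did separate them, with scores of 19.0 to 39.8 for H3K9M and -71.5 to -11.4 for H3WT, and H3WT replicate 2 lay farthest out. Among markers of cell types, all 10 chondrocyte genes were tested, and their summed level was 6126 to 9921 CPM (library-scaled, TMM-normalised counts) in H3K9M and 6065 to 17132 CPM in H3WT. Of 9 osteoblast markers 4 were tested. Of those 4, 3 had negative log2 fold changes, none with an unadjusted p under 0.05. The 1 with a positive log2 fold change had an unadjusted p under 0.05 (all genes tested: 12.2%, and 6.42% with H3K9M higher). The osteoblast list summed to 5007 to 15612 CPM in H3K9M and 3727 to 19002 CPM in H3WT, which overlapped. Bglap and Bglap2, which encode osteocalcin, never exceeded 3 counts, Mepe was at 0, and Col1a1 took 99.5% of that list's sum. Endothelial markers summed to 0.765 to 1.06 CPM in H3K9M and 0.884 to 2.28 CPM in H3WT, and adipocyte markers to 6.91 to 21.5 CPM and 17.5 to 34.0 CPM. In bulk RNA, fewer cells of a type and less RNA per cell cannot be told apart.

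Ordered by level per length (mean CPM per kilobase of exon over the 6 libraries), Spp1 came first with 628 and Mgp followed with 184. Enpp1 had 9.90 and Phospho1 7.71, but this order held only in H3K9M (means of 14.2 and 6.80) and was the reverse in H3WT (5.61 and 8.61). The next 4, Alpl (3.09), Ibsp (2.52), Sp7 (2.44) and Smpd3 (1.99), had ranges over the libraries that overlapped one another, the widest of them 0.611 to 7.39 for Alpl. Dmp1 (0.286) and Phex (0.140) were at the bottom, with at most 27 and 45 counts in any library and ranges that overlapped (0.149 to 0.472 and 0 to 0.365). Spp1 and Mgp, whose lowest and highest libraries were at 298 and 1457 and at 81.8 and 288, had ranges that did not overlap. Those of Enpp1 (3.46 to 19.8) and Phospho1 (5.98 to 10.2) did overlap, as did those of Phospho1 and Alpl.

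**Figure D1:**
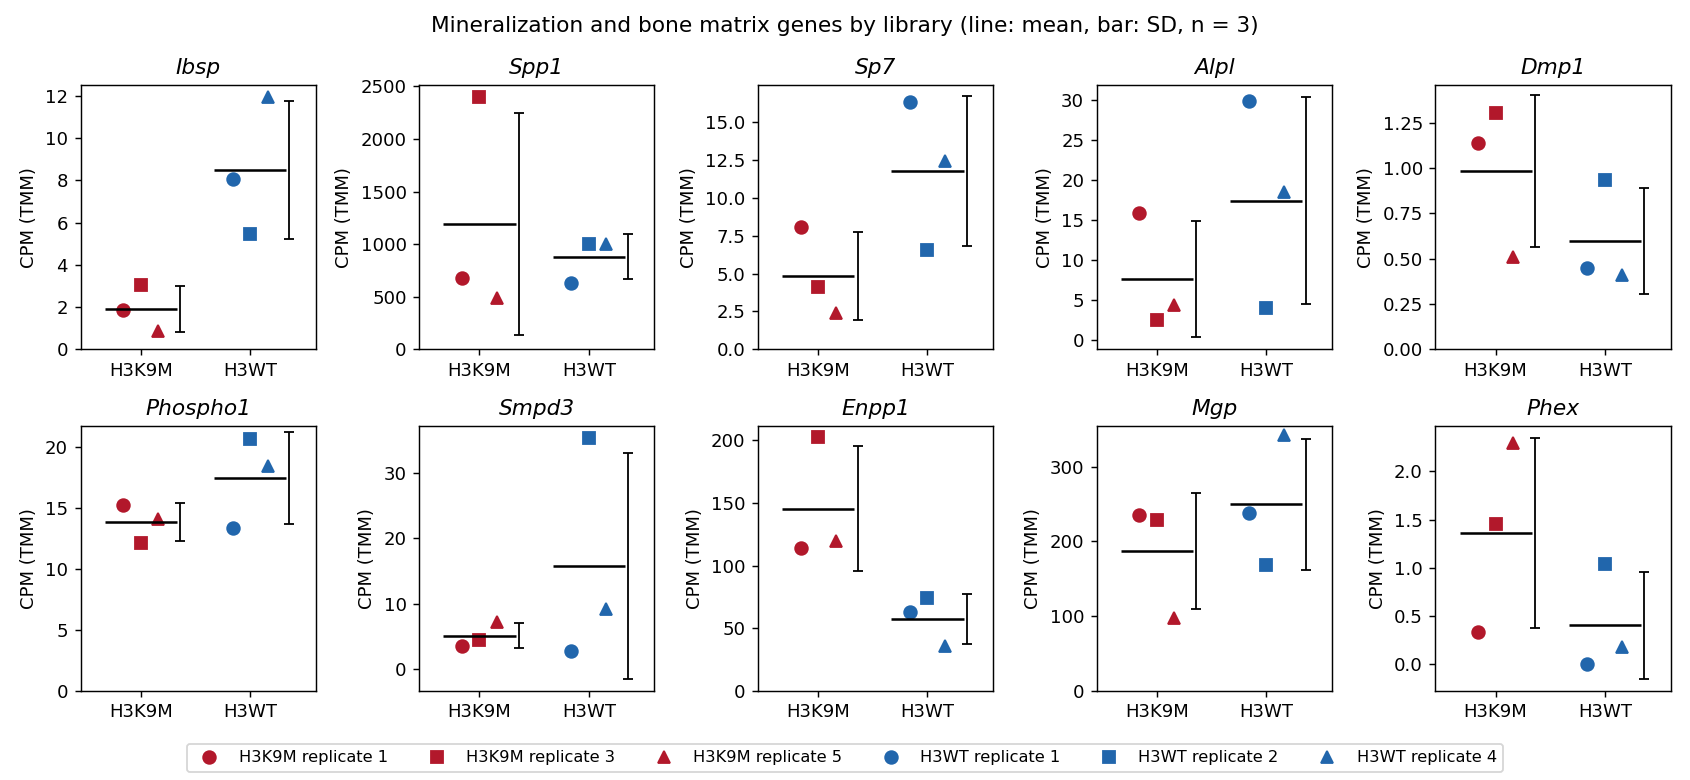
TMM-normalised CPM (linear axis from 0 or just below it) of the 10 genes, with 1 point per library in H3K9M (red) and H3WT (blue), the group mean as a line and the SD as a bar beside the points (n = 3 each). Ibsp and Enpp1 have groups that do not overlap. Spp1 has a single high H3K9M library at 2401 CPM and Smpd3 a single high H3WT library at 35.3 CPM.

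Ibsp, on chromosome 5 (104299287 to 104311472, GRCm38), encodes bone sialoprotein, which binds hydroxyapatite and integrins and nucleates mineral. Its level was 1.88, 3.04 and 0.867 CPM in replicates 1, 3 and 5 of H3K9M, and 8.08, 5.45 and 12.0 CPM in replicates 1, 2 and 4 of H3WT. Every H3K9M library lay below every H3WT library. The nearest pair, H3K9M replicate 3 and H3WT replicate 2, had exact Poisson 95% intervals of 2.34 to 3.89 and 4.46 to 6.60 CPM, which cover counting error only. Mean levels (± SD, n = 3 each) were 1.93 ± 1.09 CPM for H3K9M and 8.50 ± 3.27 CPM for H3WT, a level 4.38-fold higher in H3WT, and all later ± values are likewise SD. The log2 fold change was -2.13 (edgeR; unadjusted p 0.0040, adjusted p 0.227, SE 0.54), and DESeq2 gave -2.14 with an adjusted p of 0.0116. Over the fits that left out 1 library it ran from -2.63 (without H3K9M replicate 3) to -1.77 (without H3K9M replicate 5), all with the same sign.

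Spp1 encodes osteopontin, a phosphoprotein that binds mineral and integrins and restrains crystal growth. It was the most abundant of the 10 genes, with 680.3, 2401 and 490.7 CPM in replicates 1, 3 and 5 of H3K9M and 632.8, 1004 and 1005 CPM in replicates 1, 2 and 4 of H3WT. H3K9M replicate 3 stood far above the other 5 libraries, H3K9M replicate 1 lay within the H3WT range and H3K9M replicate 5 below it. The group means were 1191 ± 1053 CPM and 880.5 ± 214.5 CPM, a log2 fold change of 0.44 (adjusted p 0.833, SE 0.62). Without H3K9M replicate 3 the sign turned, to -0.58. The summed level of osteoclast and macrophage markers, cells that also make osteopontin, was 84.5 to 122.1 CPM in H3K9M, highest in replicate 3, and 76.6 to 96.6 CPM in H3WT. Of those 11 markers Ptprc, Adgre1, Itgam, Tyrobp and Calcr were at 0 in all 6 libraries, 5 were tested, all 5 had positive log2 fold changes and none had an unadjusted p under 0.05. Ctsk, which these libraries held at 67.6 to 89.8 CPM, took 82.6% of the sum. The Spp1 gene shares 309 exonic bases with the unconfirmed transcript model Gm42793 on its own strand in GENCODE M21.

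Dmp1 encodes dentin matrix protein 1, a SIBLING protein of osteocytes and dentin. It had 17, 27 and 10 counts in replicates 1, 3 and 5 of H3K9M and 8, 18 and 7 counts in replicates 1, 2 and 4 of H3WT, or 1.14, 1.30 and 0.510 CPM against 0.449, 0.934 and 0.412 CPM. The groups overlapped and the counting intervals were wide, for example 0.166 to 0.850 CPM for H3WT replicate 4. The log2 fold change was 0.71 (adjusted p 0.80, SE 0.88).

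Ibsp, Spp1 and Dmp1 lie in one cluster on chromosome 5, with Dspp and Mepe, the other SIBLING genes, within 270.4 kb from the start of Dspp (104170703) to the end of Spp1 (104441053). Dspp and Mepe had 0 counts in all 6 libraries, where the detection floor used here, 3 counts, stood at 0.145 to 0.201 CPM. Within the cluster the log2 fold change was -2.13 for Ibsp, 0.44 for Spp1 and 0.71 for Dmp1, and the difference between these values was not tested. H3K9M replicate 3 held the most Spp1 and Dmp1 of any library and the most Ibsp of the H3K9M libraries, and H3K9M replicate 5 held the least Spp1 and Ibsp.

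Phex encodes a zinc metallopeptidase of osteoblasts and osteocytes, whose loss causes X-linked hypophosphatemia. Its counts were 5, 30 and 45 in replicates 1, 3 and 5 of H3K9M and 0, 20 and 3 in replicates 1, 2 and 4 of H3WT. On the normalised scale this was 0.335, 1.45 and 2.30 CPM against 0, 1.04 and 0.177 CPM. The groups overlapped because H3WT replicate 2 lay above H3K9M replicate 1. In H3WT replicate 1 the 0 counts allow up to 3 counts, or 0.168 CPM. Its log2 fold change was 1.73 (adjusted p 0.646, SE 1.35), and it ran from 1.14 without H3K9M replicate 5 to 3.88 without H3WT replicate 2. H3WT replicates 1 and 4, which remain in the latter fit, were at or under 3 counts, so that fitted value depends on the prior count of the model and is no bound.

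Sp7 was the third gene with an unadjusted p under 0.05. It had 8.04, 4.11 and 2.40 CPM in replicates 1, 3 and 5 of H3K9M and 16.3, 6.54 and 12.4 CPM in replicates 1, 2 and 4 of H3WT. The groups met at one point, where H3K9M replicate 1 lay above H3WT replicate 2. Means were 4.85 ± 2.89 CPM and 11.8 ± 4.93 CPM, 2.44-fold higher in H3WT, with a log2 fold change of -1.28 (unadjusted p 0.0348, adjusted p 0.377, SE 0.51). It was -0.95 without H3K9M replicate 5 and -1.85 without H3K9M replicate 1. The unadjusted p (edgeR) stayed under 0.05 without H3K9M replicate 1 (0.0080) or H3WT replicate 2 (0.012). It rose above 0.05 without H3K9M replicate 3 (0.094) or 5 (0.095), or without H3WT replicate 1 (0.127) or 4 (0.078).

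Alpl encodes tissue-nonspecific alkaline phosphatase, the enzyme most used as a sign of mineralizing cells. Its levels were 15.9, 2.46 and 4.29 CPM in replicates 1, 3 and 5 of H3K9M and 29.8, 3.94 and 18.4 CPM in replicates 1, 2 and 4 of H3WT. Both groups held high and low libraries, 6.44-fold apart in H3K9M and 7.56-fold apart in H3WT. The means were 7.54 ± 7.27 CPM and 17.4 ± 12.97 CPM and the log2 fold change was -1.22 (adjusted p 0.641, SE 0.92). It was -0.58 without H3WT replicate 1 and -2.36 without H3K9M replicate 1. The order of the 6 libraries by Alpl was the same as their order along principal component 1. It was also the order of their summed smooth muscle and pericyte markers, which were 4899 and 4756 CPM for H3WT replicates 1 and 4, 4311 and 2477 CPM for H3K9M replicates 1 and 5, 1519 CPM for H3WT replicate 2, and lowest, 1176 CPM, for H3K9M replicate 3. All 8 of those markers were tested, 6 with negative log2 fold changes, and none was at 0. At an unadjusted p under 0.05 there were 2 (all genes tested: 12.2%), on opposite sides. Smtn was lower in H3K9M (log2 fold change -0.53) and Des higher (3.80). Acta2 took 58.0% of the sum. Their part in the Alpl result was not tested.

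Smpd3 encodes neutral sphingomyelinase 2, which cuts sphingomyelin to phosphocholine and ceramide and is needed for mineralization of growth plate cartilage. It had 3.48, 4.49 and 7.24 CPM in replicates 1, 3 and 5 of H3K9M and 2.75, 35.3 and 9.19 CPM in replicates 1, 2 and 4 of H3WT. H3WT replicate 2 was far above all others, H3WT replicate 1 was the lowest of the 6, and the groups overlapped. A log2 fold change of -1.63 (adjusted p 0.489, SE 0.86) became -0.22 without H3WT replicate 2. The order of the libraries by Smpd3 was that of their summed chondrocyte markers, from 17132 CPM (H3WT replicate 2) and 11836 CPM (H3WT replicate 4) through 9921, 6921 and 6126 CPM (H3K9M replicates 5, 3 and 1) to 6065 CPM (H3WT replicate 1). All 10 chondrocyte markers had negative log2 fold changes, 1 of them with an unadjusted p under 0.05 (all genes tested: 12.2%). None of these markers was at 0, and Col2a1 took 82.5% of the sum. Their part in the Smpd3 result was not tested. Of 70 pairings of the 10 genes with 7 marker lists, 2 gave the same order of all 6 libraries. These were Alpl with smooth muscle and Smpd3 with chondrocyte markers, and they were singled out after the values were seen. Reverse orders were also sought in the 70 pairings. Each of the 10 genes was further compared with principal component 1 in either direction, and the match of Alpl with that component came from this search.

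Phospho1 encodes a phosphatase that releases phosphate from phosphocholine in matrix vesicles. It varied least of the 10 genes within each group, 1.25-fold in H3K9M and 1.55-fold in H3WT. Its levels were 15.2, 12.1 and 14.1 CPM in replicates 1, 3 and 5 of H3K9M and 13.3, 20.7 and 18.4 CPM in replicates 1, 2 and 4 of H3WT, and the groups overlapped through H3WT replicate 1. The log2 fold change was -0.34 (adjusted p 0.593, SE 0.23). The count is uncertain, since in GENCODE M21 Phospho1 shares 1818 of its 2029 exonic bases with Zfp652 on its own strand and 1708 with Abi3 on the other, and the strand setting of the counting is not given in the sources used here. Zfp652 stood at 19.5 ± 2.64 CPM (H3K9M) and 23.0 ± 3.10 CPM (H3WT), and Abi3 at 1.00 ± 0.768 and 2.35 ± 1.79 CPM.

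**Figure D2:**
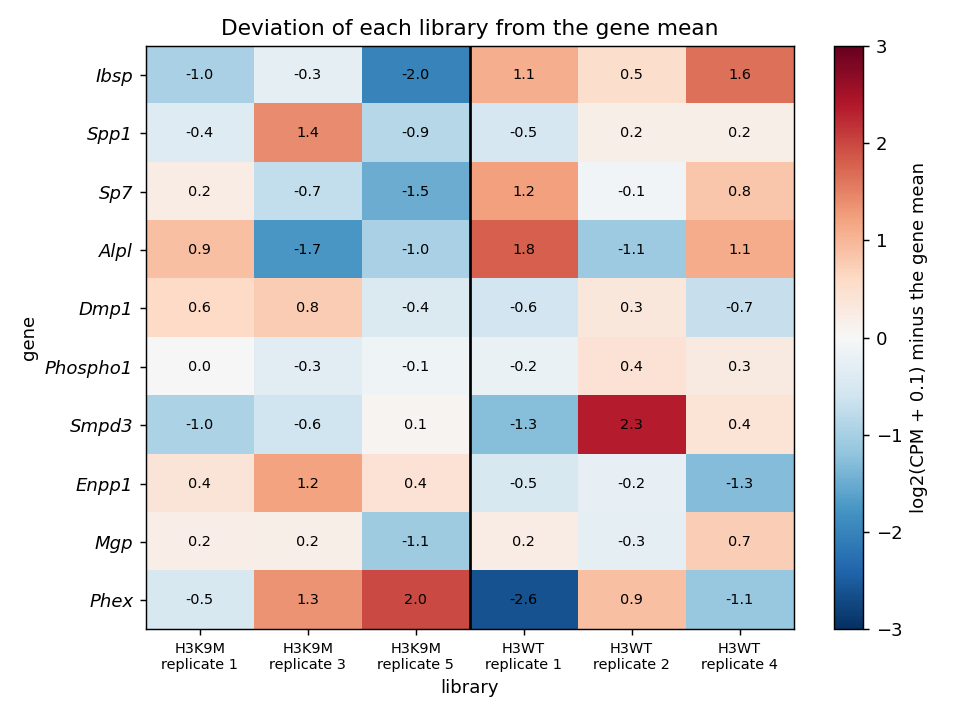
Deviation of each library (columns) from the gene's mean over the 6 libraries, on the scale log2(CPM + 0.1), for the 10 genes (rows); red is above and blue below the mean, and the line separates H3K9M from H3WT. Ibsp is below its mean in all 3 H3K9M libraries and above it in all 3 H3WT libraries, and Enpp1 is the reverse. The other 8 genes have libraries of one group on both sides.

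Enpp1 encodes the ectoenzyme that makes pyrophosphate outside the cell, and its loss causes calcification of arteries and joints. It lies on chromosome 10 (24637914 to 24712159, GRCm38). Its levels were 114.3, 203.0 and 119.3 CPM in replicates 1, 3 and 5 of H3K9M and 62.6, 74.4 and 35.5 CPM in replicates 1, 2 and 4 of H3WT. Every H3K9M library was above every H3WT library. The means were 145.5 ± 49.8 CPM and 57.5 ± 19.9 CPM, 2.53-fold higher in H3K9M. The log2 fold change was 1.34 (edgeR; unadjusted p 0.0045, adjusted p 0.231, SE 0.33), and DESeq2 gave 1.33 with an adjusted p of 0.0036. Leaving out a library moved it between 1.03 (without H3K9M replicate 3) and 1.58 (without H3WT replicate 2). The summed level of skeletal muscle markers was 18.3 to 138.9 CPM in H3K9M and 6.38 to 27.1 CPM in H3WT, which overlapped. Acta1 took 41.7% of that sum, and it stood at 26.2 CPM in H3WT replicate 1 and 5.97 CPM in H3K9M replicate 5. All 4 tested of the 8 markers were positive, 3 of them at an unadjusted p under 0.05 (all genes tested: 12.2%). Those 3, Myod1, Myh3 and Tnnt3, had groups that did not overlap, with H3K9M higher (10.7% of all genes tested). The groups of Acta1 overlapped. Myod1 was at 4.29 to 57.0 CPM in H3K9M and at 0 to 1.04 CPM in H3WT, and Myf5 was at 0 in all 6. The part of these markers in the Enpp1 and Ibsp differences was not tested.

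Enpp1 and Alpl act on pyrophosphate in opposite ways. The ratio of Enpp1 to Alpl counts was 7.20, 82.4 and 27.8 in replicates 1, 3 and 5 of H3K9M and 2.10, 18.9 and 1.93 in replicates 1, 2 and 4 of H3WT. Ratios overlapped through H3K9M replicate 1 and H3WT replicate 2. Since the lengths of the transcripts differ, the ratio is of use only between libraries.

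Mgp encodes matrix Gla protein, an inhibitor of calcification in cartilage and arteries. It had 235.7, 229.4 and 97.1 CPM in replicates 1, 3 and 5 of H3K9M and 238.7, 167.9 and 342.3 CPM in replicates 1, 2 and 4 of H3WT. H3K9M replicate 5 was lowest and H3WT replicate 4 highest, and the groups overlapped. For Mgp the log2 fold change was -0.41 (adjusted p 0.721, SE 0.39), and -0.09 without H3K9M replicate 5. The 2 genes named here as restraining mineral by pyrophosphate or by a Gla protein thus had log2 fold changes of opposite sign, 1.34 for Enpp1 and -0.41 for Mgp, of which neither passed the adjusted threshold.

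**Figure D3:**
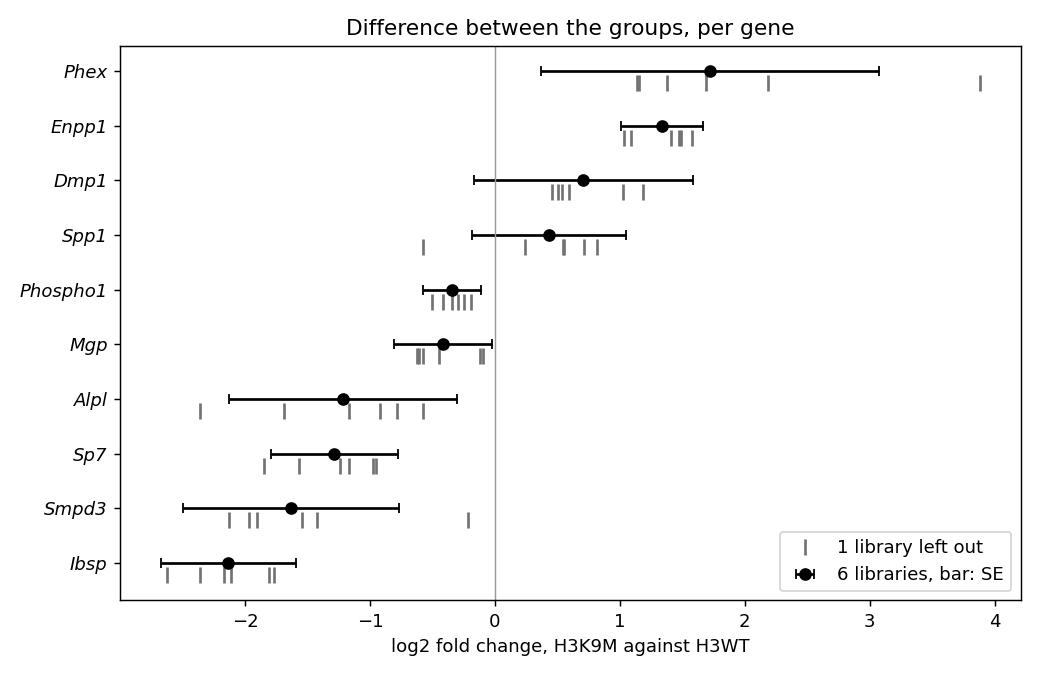
Log2 fold change of each gene, H3K9M against H3WT, from the fit to 6 libraries (point, bar: SE) and from the 6 fits that each left out 1 library (grey ticks). Spp1 is the gene with a tick on the other side of 0, at -0.58. The ticks of Ibsp span -2.63 to -1.77 and those of Enpp1 1.03 to 1.58.

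H3WT replicate 2 bore on the separation of the groups more than any other library. Without it, 7 of the 10 genes had groups that did not overlap: Ibsp, Sp7, Alpl and Mgp with H3K9M lower, and Enpp1, Phex and Dmp1 with H3K9M higher. The background in that fit was 37.4% of genes. The count was 4 without H3K9M replicate 1 (background 26.8%) and 4 without H3WT replicate 1 (27.0%). It was 2 without H3K9M replicate 3 (28.9%), 2 without H3WT replicate 4 (28.3%) and 3 without H3K9M replicate 5 (29.4%). Ibsp and Enpp1 were among the separated genes in all 6 fits. That outcome was fixed beforehand, because groups that are apart in all libraries stay apart when 1 is removed, small scaling shifts aside. No gene of the 10 had an adjusted p under 0.05 in any of these fits.

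Other genes of bone matrix and of phosphate handling were read from lists written from general knowledge. Of 18 bone matrix genes outside the 10, 10 were tested. None passed, none had an unadjusted p under 0.05, 4 log2 fold changes were positive and 6 negative, and the median was -0.06. The smallest p-values belonged to Vkorc1, the reductase that recycles vitamin K for Gla proteins such as Mgp (adjusted p 0.547 for a log2 fold change of 0.22, SE 0.14), Gas6, another Gla protein (-0.79, SE 0.53), and Fam20c, the kinase of SIBLING proteins (0.19, SE 0.18). The genes not tested were the 3 osteocalcin genes Bglap, Bglap2 and Bglap3, together with Mepe, Dspp, Ifitm5, Sost and Ostn.

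Of 20 genes of phosphate, pyrophosphate and matrix vesicles found in the table, 18 were tested, and 0 passed the adjusted threshold. At an unadjusted p under 0.05 there were 3 with higher and 1 with lower means in H3K9M, against 6.42% and 5.77% of all genes. Groups did not overlap for 3 genes with H3K9M higher and 1 with H3K9M lower, against 10.7% and 8.68% of all genes. The median log2 fold change was 0.07. Anxa2, an annexin found in matrix vesicles, had 1397, 1507 and 1542 CPM in replicates 1, 3 and 5 of H3K9M against 932.2, 1228 and 901.1 CPM in replicates 1, 2 and 4 of H3WT, a log2 fold change of 0.54 (adjusted p 0.269, SE 0.16). Slc20a1, a sodium-phosphate cotransporter, had 129.7, 146.9 and 109.2 CPM against 105.8, 78.5 and 88.8 CPM (adjusted p 0.290 for a log2 fold change of 0.50, SE 0.16). Neither gene's groups overlapped. Slc8a1, a sodium-calcium exchanger, had a log2 fold change of -1.64 (adjusted p 0.279, SE 0.49), with groups that overlapped. The remaining gene of the 4, Anxa5, named after its values were seen, is the annexin most often used to mark matrix vesicles. It had 590.5, 589.0 and 565.0 CPM against 440.6, 489.8 and 434.5 CPM, without overlap (adjusted p 0.30 for a log2 fold change of 0.35, SE 0.12). Ank, which carries pyrophosphate out of the cell, was also named after its values were seen. It had 89.97, 403.3 and 139.5 CPM against 70.7, 212.8 and 63.3 CPM (adjusted p 0.675 for a log2 fold change of 0.87, SE 0.72). The groups of Ank overlapped through H3WT replicate 2. Smpd1, likewise named afterwards, was the 1 gene of the list without overlap and with H3K9M lower. It had 49.5, 56.8 and 58.9 CPM against 59.2, 72.0 and 68.6 CPM (adjusted p 0.456 for a log2 fold change of -0.27, SE 0.14).

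All 18 osteoblast transcription factors outside the 10 were tested and 0 passed, with a median log2 fold change of -0.04. At an unadjusted p under 0.05 there was 1 in each direction, against 6.42% of all genes higher and 5.77% lower in H3K9M. Tcf7l2, a Wnt effector, had 16.9, 23.8 and 29.4 CPM in replicates 1, 3 and 5 of H3K9M and 38.1, 31.9 and 39.9 CPM in replicates 1, 2 and 4 of H3WT (adjusted p 0.320 for a log2 fold change of -0.65, SE 0.22). Mef2c, a factor of chondrocyte hypertrophy, had a log2 fold change of -0.50 (adjusted p 0.444, SE 0.24). The groups of these 2 genes did not overlap, with H3K9M lower, which was the case for 8.68% of all genes tested. Runx2, the master regulator upstream of Sp7, was added after its values were seen. It had 48.2, 36.7 and 60.6 CPM against 65.3, 34.7 and 55.02 CPM, which overlapped, with a log2 fold change of -0.09 (adjusted p 0.930, SE 0.27).

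**Figure D4:**
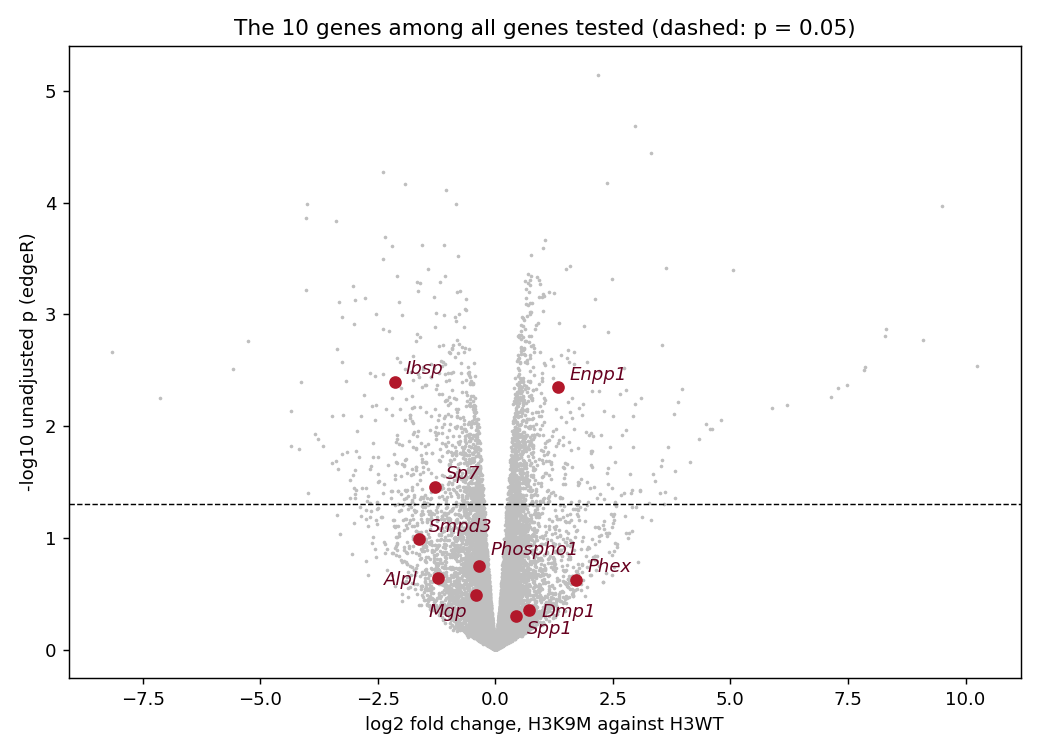
Each grey point is 1 of the 13761 genes tested, placed by its log2 fold change (H3K9M against H3WT) and by -log10 of its unadjusted edgeR p-value. The 10 mineralization and bone matrix genes are red and the dashed line marks the 0.05 level. Ibsp, Sp7 and Enpp1 lie above the line, among 1677 genes that do.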

How the data were processed

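The authors deposited raw read counts per gene symbol in 1 table with 1 column per library, read here as whole, unnormalised counts from their values. Per the submitters' processing notes, HISAT2, featureCounts, DESeq2 and the mm10 build were used. Versions, annotation and strand setting are not given in the sources used here. Groups came from the titles and genotype labels. The 6 pairs of libraries within a group differed by more than sampling noise (chi-square per degree of freedom 26.5 to 114.4).

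Counts were fitted in R 4.3.3 with edgeR 4.0.16 (filterByExpr, TMM, robust glmQLFit and glmQLFTest, genotype as the only term), with Benjamini-Hochberg adjustment over 13761 genes and a threshold of 0.05. The SE is the log2 fold change divided by the square root of the F statistic. CPM values are TMM-normalised. The code was tested on simulated counts. DESeq2 1.42.0 and limma-voom (limma 3.58.1), other scalings and filters, and fits without each library served as alternatives. Exonic lengths and overlaps came from GENCODE M21, coordinates and promoters from RefSeq GRCm38.p6. Similar transcripts were sought with blastn 2.17.0 (at least 90% identity over 200 bases). Besides genes that overlap, it found these only for Phex (Nek4 and Papolg). Smpd3 shares 247 exonic bases with Prmt7 on the other strand.

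The 10 genes and the lists were chosen with earlier results of these data known. Each list is described by its 3 smallest p-values. One item that this rule names is not reported here. In the lists Cnmd and Mymk were matched to the table's Lect1 and Tmem8c.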

Additional observations from a re-analysis of the deposited data

How the results depend on the processing

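No paired analysis was possible because the groups share only 1 replicate number. Among the 10 genes, 0 passed the adjusted threshold in the reported fit, with library size alone, the size factors of DESeq2, limma-voom, either other filter, and without any single library. The DESeq2 Wald test moved this to 2 (Ibsp -2.14, adjusted p 0.0116, and Enpp1 1.33, adjusted p 0.0036), and its count over all genes was 390, where the reported fit gave 0 and testing every gene with a count gave 36. The cause was not tested. Without each library in turn, the count over all genes ran from 0 to 91, the latter without H3WT replicate 2. It was 2 without H3K9M replicate 3. The number of genes among the 10 whose groups did not overlap ran from 2 to 7, and fewer samples alone raise it. Signs kept under every alternative run for 9 of the 10 genes. Spp1 ran from -0.58 (without H3K9M replicate 3) to 0.82 (without H3K9M replicate 5). Dmp1 and Phex did not pass the filter of 10 or more counts in each library. These genes had at most 27 and 45 counts in a library.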
